A study of Mus musculus with 39 samples.

Results

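Lynfl/wt mammary tumours of PCA group 3/4 were compared with Lynfl/wt tumours of PCA group 1/2, so that the Lyn genotype was the same on both sides. The Lynfl/wt cohort gave 14 of the 39 tumours of the series, and 6 of them (HET-08, HET-09, HET-19, HET-25, HET-30 and HET-49) lay in PCA group 3/4 and 8 (HET-06, HET-07, HET-27, HET-29, HET-31, HET-45, HET-48 and HET-63) in PCA group 1/2. The PCA groups were chosen by the expression values themselves, in a principal component analysis that the study ran over all 39 tumours, on the same libraries as those compared here. Each gene that differs between them is therefore described and not tested, and a group of genes that differs is no independent evidence that the groups are real.

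All 14 tumours were adenocarcinomas of no special type in adult female mice. Each mouse carried BlgCre, Brca1flox/flox and p53+/- with 1 floxed and 1 wild-type copy of Lyn, and the PCA groups differ in none of these alleles. The Blg (beta-lactoglobulin) promoter drives Cre in mammary epithelium, while the p53 allele is missing from every cell, and the floxed part of Lyn is a single exon, so that a count over the whole gene does not show how far it was deleted. Bulk poly(A) RNAseq was made from frozen pieces taken away from obvious necrosis, so that leukocytes, stroma and neighbouring tissue were measured with the neoplastic cells, and fewer cells of a type cannot be told apart from less RNA per cell. The 14 tumours came from 10 mice. HET-08, HET-09 and HET-19 grew in mouse 20-078, so that the PCA 3/4 tumours came from 4 mice only, and mice 21-001 and 21-027 each gave 1 tumour to either group.

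Total counts ranged from 50490044 to 71041331 (median 63095142) in PCA 3/4 tumours and from 52420848 to 83122719 (median 61777656) in PCA 1/2 tumours, a difference in means of -1767000 counts (exact permutation test over 3003 splits, two-sided, p = 0.747). Normalised counts below were scaled by TMM factors to the mean effective library of the 14 tumours. HET-07 stood apart by its neighbouring tissue: the summed level of 14 skeletal muscle genes was 160056 normalised counts there and 310.0 to 47095 in the other PCA 1/2 tumours, and that of 10 adipocyte markers was 118579 against 742.5 to 8036. Epithelial keratins and adhesion genes, which should be high in an adenocarcinoma, summed to 233863 to 522693 normalised counts in PCA 3/4 and 193492 to 580993 in PCA 1/2 tumours. Lyn had 4244, 3230.0, 5031, 5343, 2673 and 2723 normalised counts in HET-08, HET-09, HET-19, HET-25, HET-30 and HET-49, and 1674 to 3896 (median 2606) in PCA 1/2 tumours, so that the groups overlapped (log2 fold change 0.48, SE 0.23).

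Higher and lower below stand for a Benjamini-Hochberg adjusted p under 0.05 in edgeR together with at least a doubling or a halving (0.5-fold) of the level, and this rule only sorts the genes. Of 18296 genes tested, 595 (3.25%) were higher, 381 (2.08%) were lower and 976 (5.33%) were either. Gene lists below are short, so that a single call in a list is given for that gene and not as a result about the list. In 167 genes (0.913%) every PCA 3/4 tumour lay above every PCA 1/2 tumour, and in 113 (0.618%) every one lay below. A gene had to reach a minimum count in 6 tumours to be tested, which genes that were high in 5 PCA 3/4 tumours and at 0 elsewhere did not do. Gm20465, a gene model, was such a case, with 579, 0, 138, 1328, 809 and 1413 normalised counts in the 6 PCA 3/4 tumours, in the order given above, and 0 in all 8 PCA 1/2 tumours.

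The genes that set PCA 3/4 tumours apart included 14 of 24 listed genes of the NF-kB pathway. NF-kB is a family of transcription factor dimers that are held inactive in resting cells, in the canonical branch by inhibitors such as the product of Nfkbia, and in the non-canonical branch because Nfkb2 makes a precursor that has to be cut before it can pair with Relb. The kinase that starts the non-canonical branch, Map3k14 (NIK), is itself kept scarce by a complex of Traf2, Traf3, Birc2 and Birc3 that marks it for destruction. Several inhibitors of the pathway, Nfkbia and Tnfaip3 among them, are also its targets, and in the mammary gland NF-kB is known for its part in lobuloalveolar growth and in inflammation.

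Promoters of 4 of the higher NF-kB genes are shown, picked because they hold letters that match a loose pattern of an NF-kB site. The windows run from 250 bases before to 50 after the start of transcription, from RefSeq annotation of GRCm38.p6. Capitals mark each match to GGGANNNNCC on either strand, overlapping matches merged. Nfkb2 is at chr19:46304487-46304786 on the plus strand, Nfkbia at chr12:55492598-55492897 on the minus strand, Tnfaip3 at chr10:19015361-19015660 on the minus strand and Tnip1 at chr11:54962891-54963190 on the minus strand.
Nfkb2: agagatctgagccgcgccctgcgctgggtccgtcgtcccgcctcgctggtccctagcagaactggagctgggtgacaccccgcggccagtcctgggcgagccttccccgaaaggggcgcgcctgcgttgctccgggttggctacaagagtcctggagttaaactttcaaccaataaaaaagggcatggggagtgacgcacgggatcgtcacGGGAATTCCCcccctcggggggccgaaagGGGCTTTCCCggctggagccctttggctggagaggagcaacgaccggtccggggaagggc
Nfkbia: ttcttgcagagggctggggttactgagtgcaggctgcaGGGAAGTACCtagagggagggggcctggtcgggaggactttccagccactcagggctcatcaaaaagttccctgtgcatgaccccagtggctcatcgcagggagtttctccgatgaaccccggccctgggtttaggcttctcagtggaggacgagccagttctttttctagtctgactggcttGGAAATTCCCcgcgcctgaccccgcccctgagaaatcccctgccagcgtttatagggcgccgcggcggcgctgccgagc
Tnfaip3: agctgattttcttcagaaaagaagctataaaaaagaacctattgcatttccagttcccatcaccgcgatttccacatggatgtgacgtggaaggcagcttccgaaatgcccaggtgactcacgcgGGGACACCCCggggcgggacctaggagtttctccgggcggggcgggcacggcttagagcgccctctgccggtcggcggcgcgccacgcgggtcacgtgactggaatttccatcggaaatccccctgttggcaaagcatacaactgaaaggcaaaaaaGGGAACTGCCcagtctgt
Tnip1: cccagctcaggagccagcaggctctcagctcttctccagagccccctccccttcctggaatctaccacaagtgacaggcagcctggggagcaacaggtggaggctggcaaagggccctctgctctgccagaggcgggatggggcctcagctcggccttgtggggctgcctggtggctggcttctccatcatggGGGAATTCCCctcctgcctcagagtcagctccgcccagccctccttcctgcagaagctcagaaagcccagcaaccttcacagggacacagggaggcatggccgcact

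In Nfkb2 the matches begin 39 and 10 bases before the start of transcription, in Nfkbia 212 and 29 before, in Tnfaip3 125 before and 33 after, and in Tnip1 57 before. The letters occurred in 20.5% of 27025 windows of this length and in 26.4% of the 12488 windows of tested genes. They occurred in 32.5% of the 431 windows of higher genes and in 31.6% of the 272 windows of lower genes, so that higher and lower genes held them at about the same share. Of the 24 NF-kB genes listed next 20 had a window, and 11 of these (55%) held the letters. Of the 14 that were higher 13 had a window and 7 of these (53.8%) held them, about the share of the whole list. A match is a string of letters and not a measured site.

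Of 24 genes that encode NF-kB subunits and their regulators, all 24 were tested, and 14 (58.3%) were higher in PCA 3/4 tumours and 0 lower. Of all genes tested 3.25% were higher. The median log2 fold change was 1.38 in the list against -0.03 over all tested genes. Over all 24 genes the summed level was 314727 normalised counts in HET-08, 138951 in HET-09, 192122 in HET-19, 320119 in HET-25, 281749 in HET-30 and 341523 in HET-49, and 70923 to 104958 (median 83429) in PCA 1/2 tumours. The lowest PCA 3/4 tumour, HET-09, was above the highest PCA 1/2 tumour. The list was chosen with earlier results of these data known, and all 14 higher members are named, those beyond the general rule after their values were seen.

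**Figure D1:**
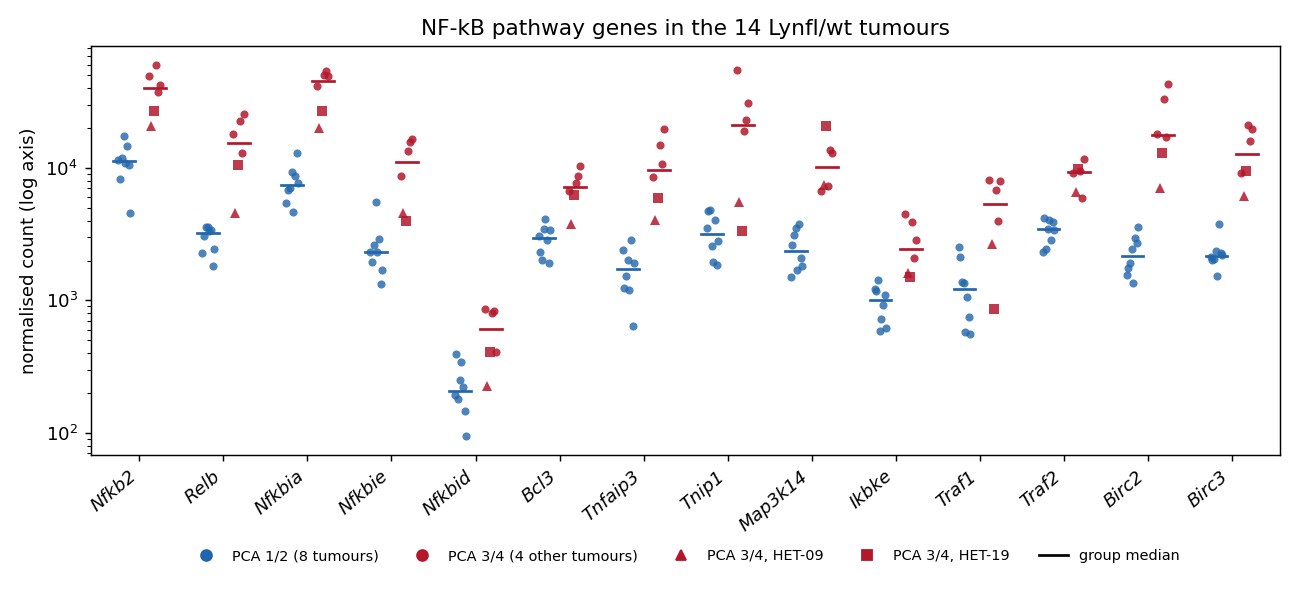
Normalised counts (log axis) of the 14 higher NF-kB genes in each of the 6 PCA 3/4 tumours (red, with HET-09 as a triangle and HET-19 as a square) and the 8 PCA 1/2 tumours (blue), with group medians as bars. In 9 of the 24 listed genes the groups do not overlap, with PCA 3/4 above, as in 0.913% of all genes tested. HET-09 or HET-19 is often the lowest red point, as for Nfkb2 with 20894 in HET-09 and a highest PCA 1/2 value of 17544.

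Of the 5 subunit genes, the pair that forms the non-canonical dimer was called. Nfkb2 had 49435, 20894, 26956, 60339, 37587 and 42356 normalised counts in the 6 PCA 3/4 tumours and 4585 to 17544 (median 11184) in PCA 1/2 tumours (log2 fold change 1.81, SE 0.29). Relb, its partner, had 17994, 4542, 10518, 22692, 13027 and 25338 against 1802 to 3592 (median 3201) (log2 fold change 2.42, SE 0.31). In both genes the groups did not overlap, and HET-09 was the lowest PCA 3/4 tumour. The subunits of the canonical dimer and their relative were not called, with log2 fold changes of 0.50 for Nfkb1, 0.39 for Rela and 0.71 for Rel.

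Genes of the inhibitors were higher. Nfkbia, the main inhibitor of the canonical dimer, had 41563, 19849, 26979, 50482, 53806 and 49365 normalised counts in PCA 3/4 and 4649 to 12925 (median 7369) in PCA 1/2 tumours (log2 fold change 2.37, SE 0.27). Nfkbie, a related inhibitor, had 8737, 4563, 3981, 13319, 15799 and 16573 against 1320.2 to 5517 (median 2319) (log2 fold change 2.02, SE 0.37), and here HET-09 and HET-19 lay within the PCA 1/2 range. Smaller differences were found for Bcl3 (log2 fold change 1.32, SE 0.23) and Nfkbid (log2 fold change 1.37, SE 0.38), nuclear members of the inhibitor family. Tnfaip3 (A20), which trims ubiquitin chains to end the signal, had 8579.6, 4024, 5878, 14943, 10727 and 19755 against 645 to 2878 (median 1718) (log2 fold change 2.63, SE 0.37), without overlap. Tnip1, which binds A20, had 54577, 5532, 3326, 19069, 23008 and 30795 against 1836 to 4807 (median 3169) (log2 fold change 2.79, SE 0.49), and HET-08 was the highest tumour while HET-19 was inside the PCA 1/2 range.

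Genes of the complex that controls NIK were higher too, with 1 exception. Map3k14 (NIK) had 6638, 7428, 20659.8, 7275, 13560.5 and 13049 normalised counts in PCA 3/4 and 1489 to 3761 (median 2363) in PCA 1/2 tumours (log2 fold change 2.18, SE 0.30). HET-19 held the highest value, and the groups did not overlap. Birc2, a ubiquitin ligase of the complex, had 17990.0, 7049, 12921, 33069, 17191 and 42889.6 against 1351 to 3564 (median 2173) (log2 fold change 3.26, SE 0.36), and Birc3, its close relative beside it on chromosome 9, had 9120.0, 6136, 9549, 21112, 15864 and 19749.6 against 1521 to 3764 (median 2161) (log2 fold change 2.57, SE 0.28). Both were without overlap. Traf2, the adaptor that brings them in, had 9184, 6529, 9795, 9473, 5910.5 and 11711 against 2308 to 4193 (median 3450.5) (log2 fold change 1.40, SE 0.20), also without overlap, and Traf1, an adaptor induced by NF-kB, 8038, 2686, 864, 6801, 3947 and 7939.9 against 562 to 2551 (median 1209) (log2 fold change 1.96, SE 0.46), with HET-19 inside the PCA 1/2 range. The kinase gene Ikbke was higher without overlap (log2 fold change 1.5, SE 0.29), whereas Ikbkb, a core kinase of the canonical branch, passed the adjusted p but not the fold (log2 fold change 0.82, SE 0.18). The exception was Traf3, given next, which had no common direction.

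The 24 listed genes include 2 brakes of the pathway that were low in some PCA 3/4 tumours and not in others, and they were singled out after their values were seen. Cyld, a deubiquitinase that removes the chains on which the signal depends and is a tumour suppressor, had 1497, 5660.3, 5201, 1495, 501 and 512 normalised counts in HET-08, HET-09, HET-19, HET-25, HET-30 and HET-49 and 1970.5 to 5165 (median 4024) in PCA 1/2 tumours. HET-30 and HET-49 were at 12.5% and 12.7% of the PCA 1/2 median, HET-08 and HET-25 at 37.2% each, and HET-09 and HET-19 above it. Traf3, the adaptor that hands NIK to the ligases, had 5702, 539.9, 5547, 1558, 8994 and 5212 against 2800.1 to 5984 (median 3603), so that HET-09 was at 15.0% of the PCA 1/2 median, HET-25 at 43.2% and the other 4 above the median. HET-19 was low in neither gene, but its Map3k14 count was 874.3% of the PCA 1/2 median. Each PCA 3/4 tumour but HET-19 had Cyld or Traf3 below all 8 PCA 1/2 tumours, and HET-19 had the highest Map3k14 count of the 14. This grouping was put together after the values were seen. How many other genes would sort the tumours as well was not counted, so it is no evidence of a common cause. In the mean, Cyld (log2 fold change -0.66, SE 0.50) and Traf3 (log2 fold change 0.30, SE 0.43) were not called.

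**Figure D2:**
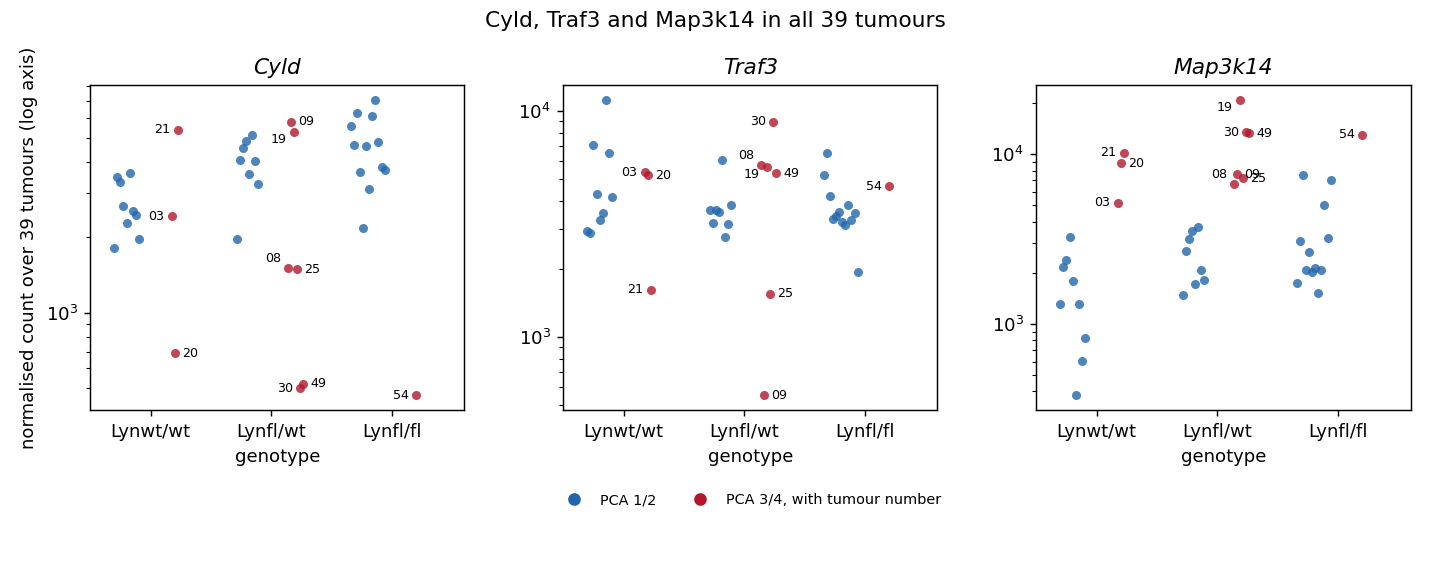
Normalised counts, scaled over all 39 tumours (log axis), of Cyld, Traf3 and Map3k14 by genotype, with PCA 1/2 tumours in blue and PCA 3/4 tumours in red beside their tumour numbers. Cyld is 499 in HET-30 against 1805 or more in all 29 PCA 1/2 tumours, and Traf3 is 552 in HET-09 against 1933 or more.

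The same genes were looked at in the other 25 tumours of the series, on a scale set over all 39. In the 29 PCA 1/2 tumours of the 3 genotypes, Cyld ranged from 1805 to 7079 normalised counts and Traf3 from 1933 to 11192. The Lynfl/fl tumour of PCA 3/4, HOM-54, had 469 for Cyld. Among the 3 Lynwt/wt tumours of PCA 3/4, WT-20 had 689 for Cyld and WT-21 had 1617 for Traf3, while WT-03 was low in neither. Map3k14 was 5189 to 20945 in the 10 PCA 3/4 tumours and 379.8 to 7508 in the 29 of PCA 1/2, so that it overlapped over the series, though not within Lynfl/wt tumours. The same held for Birc3, Birc2, Relb and Nfkb2. Their highest PCA 1/2 counts were 19641, 15229, 6668 and 27147, against 6278, 7213, 4647 and 21379 in HET-09. Nfkbia, Dsg1a, Aqp5 and Chrm3 overlapped over the series too, whereas Sspo, Lcn2 and Hey1 did not.

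Neighbours of Cyld on chromosome 8 were low with it in HET-30. From Phkb to Fto (85840959 to 91668439 of GRCm38, 5.83 Mb), 14 of 17 genes with a mean of at least 500 normalised counts were at or under -1.5 on the log2 scale relative to the PCA 1/2 median, with a median of -3.19. The exceptions in HET-30 were Snx20, Nod2 and Adcy7 at 0.47, -1.04 and -1.31, and the genes beyond either end, Itfg1 and Irx3, were at -1.11 and -0.75. Over the same genes the medians of the other 13 tumours were -0.75 to 0.25. The lowest were HET-25 at -0.75 and HET-08 at -0.73, in which Cyld was also low, with 15 and 14 of the 17 genes under 0. HET-06, which had the lowest Cyld count of PCA 1/2, was at -0.63 with 16 under 0, and the rest were at -0.18 to 0.25. In HET-49 Cyld itself was at -2.90, and the median of the stretch was -0.09. The 2 sides of Cyld differed there. From Phkb to Nod2 the genes were at -0.10 to 4.20, but for Adcy7 at -1.72. From Chd9 to Fto they were at -1.09 to -0.43, and in HET-06, a PCA 1/2 tumour, these were at -0.98 to -0.56. In HET-09, Traf3 on chromosome 12 and its neighbours Rcor1 and Cdc42bpb were at 15.0%, 23.0% and 24.4% of their PCA 1/2 medians, while the next gene on either side, Ankrd9 and Lbhd2, were at 0.11 and 0.77 on the log2 scale. Lbhd2 was at 2.14 to 9.15 in the other PCA 3/4 tumours, so that it does not show where the low genes end. Beside Lbhd2, Exoc3l4, Tnfaip2 and Gm266 were at 1.05 to 5.22, 0.06 to 5.72 and 2.57 to 7.48 in PCA 3/4 tumours. In PCA 1/2 tumours they reached 2.29, 1.44 and 4.06. In HET-25, Cdc42bpb was at 25.2% and Rcor1 at 135.3%. Genomic DNA was not analysed here, and whether copies of these genes were lost was not tested.

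**Figure D3:**
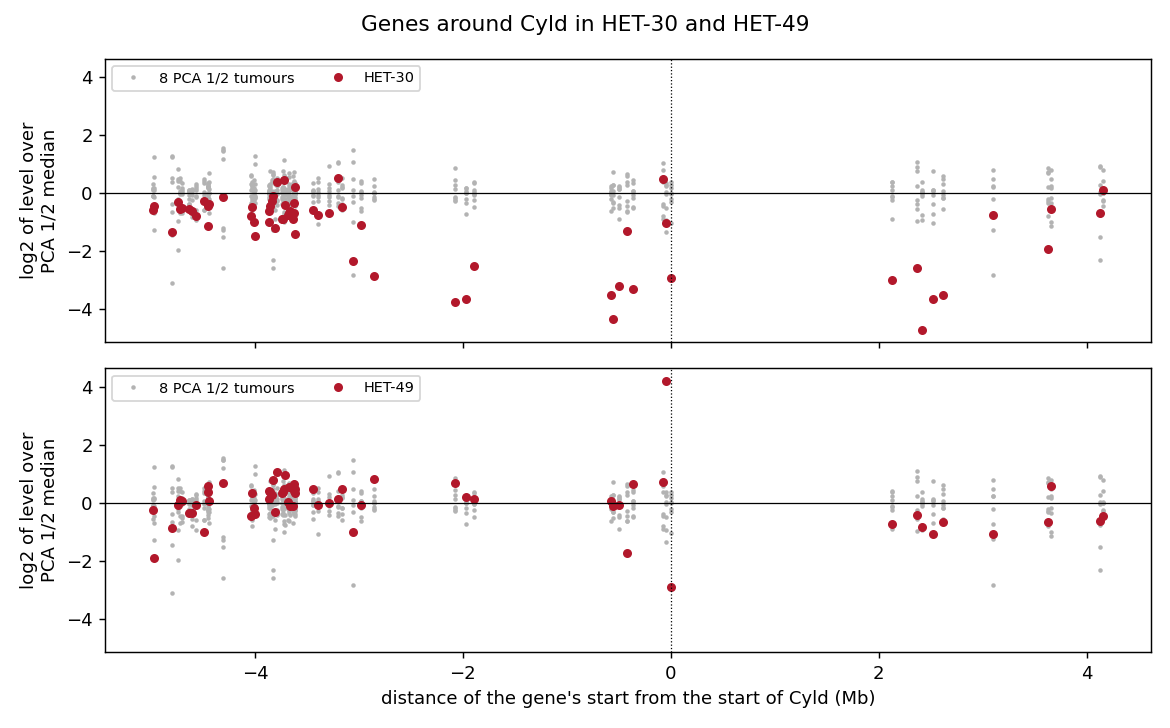
Level of each gene around Cyld as log2 over its PCA 1/2 median, against the distance of its start from the start of Cyld in Mb, in HET-30 (top, red) and HET-49 (bottom, red), with the 8 PCA 1/2 tumours in grey. In HET-30 the genes on both sides of Cyld are low, to -4.71. In HET-49 Cyld at -2.90 lies below all other genes shown, and those from Chd9 to Fto are at -1.09 to -0.43.

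Birc2 and Birc3 also have neighbours that were high in the same tumours. Tmem123, which lies next to Birc2, was 1.00 to 3.18 above its PCA 1/2 median on the log2 scale in the 6 PCA 3/4 tumours, and Mmp7, a secreted matrix protease of glandular epithelium, was 1.98 to 10.94 above it. Yap1, beyond Birc3, was at -0.26 to 0.24. Mmp7 counts were 88571, 439.9, 147, 15172, 6846 and 13418 in PCA 3/4 and 0 to 145 (median 14.4) in PCA 1/2 tumours (log2 fold change 9.02, SE 1.53), the highest in HET-08.

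Ligands of the TNF superfamily start both branches. Of 18 listed ligands 15 were tested, and Tnfsf15 alone was higher (log2 fold change 1.81, SE 0.50), or 6.67% against 3.25% of all genes tested. The median log2 fold change over the list was 1.00. Tnfsf15 was not called with the mouse as a random effect, so that tumours of 1 mouse are taken as correlated (limma, adjusted p = 0.0778 with an estimated correlation), nor with all 39 tumours in the fit. Tnf and Ltb (lymphotoxin beta), which act through the canonical and the non-canonical branch, were not called, with log2 fold changes of 1.37 and 2.31. Of the 21 receptors 5 were higher (23.8%, against 3.25% of all genes tested). Cd40, a receptor of antigen-presenting cells that feeds the non-canonical branch, had 1916, 303, 210.5, 5867, 2970.5 and 2126 normalised counts against 132 to 818 (median 287) (log2 fold change 2.49, SE 0.64), Tnfrsf4 2467, 142, 99.1, 2964, 1901 and 1166 against 33.9 to 148 (median 97.9) (log2 fold change 3.91, SE 0.66), and Fas, the death receptor, 2770.5, 419, 662, 4556, 4038 and 3641 against 143 to 561 (median 431) (log2 fold change 2.76, SE 0.49). In Cd40 and Tnfrsf4 HET-09 and HET-19 lay within the PCA 1/2 range and the other 4 tumours above it. Tnfrsf14 (log2 fold change 1.81, SE 0.43) and Tnfrsf11a (RANK, log2 fold change 1.80, SE 0.44), the receptor that drives alveolar growth in the mammary gland, were also higher. Tnfrsf1a, a main receptor of TNF, ran the other way, with 7782, 7294, 6476, 5409.9, 6648 and 5793 against 8324 to 16689 (median 12334) (log2 fold change -0.93, SE 0.20), a fold short of the threshold though without overlap.

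Genes of apoptosis were higher among both its protective and its killing members. Of 17 tested members of the Bcl2 family 5 (29.4%) were higher and 1 lower, against 3.25% and 2.08% of all genes tested. The highest was Bcl2a1d, a survival gene induced by NF-kB, with 4633, 752, 4267, 4643, 4652 and 7746 normalised counts against 98.8 to 452 (median 321) (log2 fold change 3.88, SE 0.43). Its near-identical copies Bcl2a1b (log2 fold change 3.5, SE 0.47) and Bcl2a1a (log2 fold change 2.91, SE 0.39) were higher too, but reads that map to several places were left out by the authors, so that the split among the copies is uncertain. Pmaip1 (Noxa), a killing member, had 6699, 2747, 2291, 11901, 3784 and 26019 against 319.5 to 1764 (median 1079) (log2 fold change 3.03, SE 0.53), without overlap, and Bik, another, was higher without overlap (log2 fold change 1.44, SE 0.32), whereas Bid was lower (log2 fold change -1.98, SE 0.42). Bbc3 (Puma) had no overlap but a fold under 2 (log2 fold change 0.79, SE 0.16). Of 16 targets of Trp53, Pmaip1 and Trp53inp1 (log2 fold change 1.97, SE 0.34) were higher (12.5%) and Phlda3 was lower (log2 fold change -1.83, SE 0.44). Trp53 itself was not called (log2 fold change 0.03, SE 0.24).

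Genes outside the pathway had the largest differences. Sspo, which encodes SCO-spondin, a giant secreted protein of the brain, had 6495, 761, 5719.9, 11829.9, 9339 and 20674 normalised counts in PCA 3/4 and 6 to 105 (median 53.7) in PCA 1/2 tumours (log2 fold change 7.29, SE 0.67). It ranked first of all genes in edgeR together with Rhbdl3, a rhomboid-like membrane protein, at 3132, 1995, 3649, 2266, 5560.4 and 5845 against 48.3 to 345 (median 139) (log2 fold change 4.58, SE 0.44). Dsg1a, a desmosomal cadherin of skin, had 8688, 10.3, 11127, 30812, 25928 and 62389 normalised counts and was at 0 in 7 PCA 1/2 tumours and at 6.80 in HET-63, so that HET-09 was nearly at the level of PCA 1/2 while the other 5 PCA 3/4 tumours were far above it. Dsg2, its widely expressed relative, was higher as well (log2 fold change 1.25, SE 0.29). Alox12e, an epidermal lipoxygenase, had 33797, 4309, 2767, 13978, 7902 and 12389 against 65.2 to 445 (median 136) (log2 fold change 5.92, SE 0.65), and Plxnd1, a semaphorin receptor, 37393, 26364, 23785, 20597, 39301 and 28935 against 4441 to 9920.0 (median 7641) (log2 fold change 1.94, SE 0.21), neither with overlap. Galnt14, an enzyme that starts O-linked sugar chains, had 130.1, 68.3, 129.7, 371, 297 and 656 normalised counts and at most 2.10 in PCA 1/2 tumours. No gene of a list of 18 keratinocyte genes was called, and 12 of them were too low to test.

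Markers of M cells and of medullary thymic epithelium, epithelia in which the non-canonical NF-kB branch is known to act, were partly higher. Of 10 M-cell genes 9 were tested, 4 (44.4%) were higher and 0 lower, against 3.25% and 2.08% of all genes tested. All 9 log2 fold changes were positive, where 48% of all genes tested were. Spib, the transcription factor that makes M cells, had 12327, 335, 43026, 213182, 92030.0 and 251620.4 normalised counts against 13.7 to 998 (median 55.8) (log2 fold change 9.13, SE 1.46). HET-09 lay within the PCA 1/2 range, in which HET-07 was highest, and the other 5 tumours were far above it. Ccl20, the chemokine that M cells secrete, was higher (log2 fold change 6.68, SE 1.38), as were Tnfaip2, at 25058, 4106, 9665, 80713, 85158 and 210185 against 1724 to 10430.3 (median 3945) (log2 fold change 3.97, SE 0.71), and Sox8 (log2 fold change 2.80, SE 0.61). Gp2, the surface marker of mature M cells, was at 4064 normalised counts in HET-30 and at most 51.9 in the other 13 tumours. Of 11 thymic epithelial genes 8 were tested and 3 (37.5%) were higher, against 3.25% of all genes tested. None of the 3 was called with the mouse as a random effect (limma, adjusted p = 0.0669 for Aire, 0.0672 for Cd83 and 0.12 for Fezf2 with an estimated correlation). Aire, which lets thymic cells express genes of other tissues, had 4426, 408, 72.2, 5925, 3783 and 7305 against 6.80 to 634 (median 178) (log2 fold change 4.22, SE 0.95), with HET-09 and HET-19 inside the PCA 1/2 range. Fezf2, a second such regulator, was highest in HET-08 and HET-09, at 3698 and 2122, and at most 194.9 in the other Lynfl/wt tumours, and Cd83 was the third (log2 fold change 1.93, SE 0.46).

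**Figure D4:**
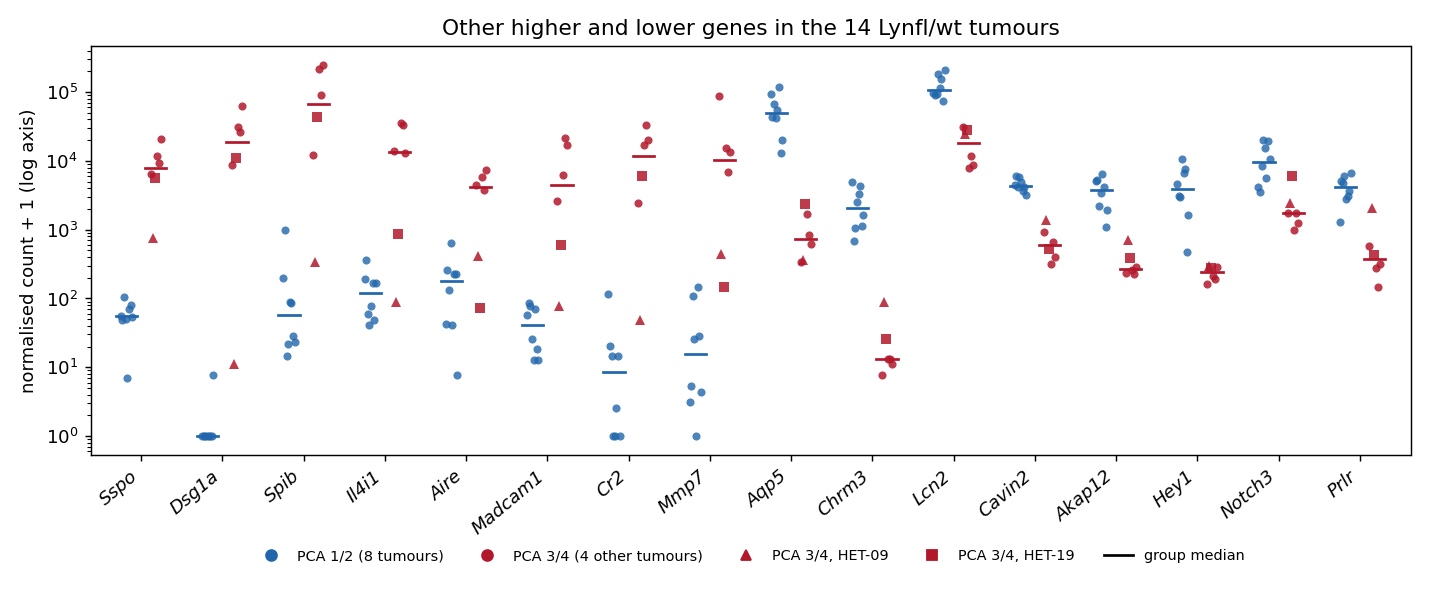
Normalised counts plus 1 (log axis) of 8 higher and 8 lower genes in the 6 PCA 3/4 tumours (red, with HET-09 as a triangle and HET-19 as a square) and the 8 PCA 1/2 tumours (blue), with group medians as bars. HET-09 is the lowest red point for Sspo, Dsg1a, Spib, Il4i1, Madcam1 and Cr2, while all 6 red points lie below every blue point for Aqp5, Chrm3, Lcn2, Cavin2, Akap12 and Hey1.

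Immune genes were mixed. Il4i1, an enzyme that breaks down aromatic amino acids and dampens T cells, had 13956, 87.1, 859, 35281, 33424 and 13208 normalised counts against 39.6 to 356 (median 121) (log2 fold change 6.87, SE 1.03), with HET-09 in the PCA 1/2 range and HET-19 the lowest of the 5 tumours above it. It was the only higher gene among 12 tested genes of amino acid catabolism that suppresses immunity, and was not called with the mouse as a random effect (limma, adjusted p = 0.0562 with an estimated correlation). Of 10 MHC class II genes 5 (50%) were higher, against 3.25% of all genes tested, and 2 with the mouse as a random effect, which left out Ciita. All 10 log2 fold changes were positive, where 48% of all genes tested were. Cd74, the invariant chain, had 211386, 132508, 145792, 214495, 123358 and 93265 against 42315 to 118633 (median 49191) (log2 fold change 1.35, SE 0.28), H2-Oa was higher (log2 fold change 3.74, SE 0.65), and so was Ciita, the switch of the class II genes (log2 fold change 1.42, SE 0.38). Of 15 MHC class I genes B2m was higher (log2 fold change 1.20, SE 0.27) and all 15 were positive, though class I genes are similar in sequence and share multimapping reads. With all 39 tumours in the fit the calls of B2m and Cd74 were lost (edgeR, adjusted p = 0.111 and 0.0705). None of 24 interferon-stimulated genes was called, while all 24 were positive (median 1.24). Their summed level was 443800 normalised counts in HET-25, 46980 to 141398 in the other PCA 3/4 tumours and 17829 to 142096 in PCA 1/2 tumours, so that HET-25 alone lay outside. Of 29 tested chemokine genes only Ccl20 was called (3.45%, where 3.25% of all genes tested were higher), and Ccl5 was not (log2 fold change 1.72, SE 0.67). Leaving out HET-07 and HET-09, a choice made after the data were seen, raised these counts: 8 chemokines were then higher, Ccl5 among them, as were 7 interferon-stimulated genes and 4 MHC class I genes. HET-09 was the least distinct PCA 3/4 tumour. HET-07 had the highest PCA 1/2 sum of chemokines (83541) and of interferon-stimulated genes (142096). The choice thus favoured more calls, and the raised counts are no added evidence.

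Markers of leukocytes and stroma were read beside these genes. None of 18 T-cell, 7 tested NK-cell, 7 tested plasma-cell or 15 macrophage markers was called. Without HET-07 and HET-09, again a choice made after the data were seen, 3 T-cell and 3 macrophage markers and 1 plasma-cell marker were higher. T-cell markers had a median log2 fold change of 1.54, and their summed level was 29642 in HET-25 and 3555 to 9166 in the other PCA 3/4 tumours, against 1920 to 14139 in PCA 1/2 tumours. Among 13 tested B-cell markers only Cr2, a complement receptor shared with follicular dendritic cells, was higher, at 2449, 47.8, 6026, 17154, 33160.3 and 20176 normalised counts against 0 to 116 (median 7.60) (log2 fold change 9.34, SE 1.46). The call of Cr2 was lost with the mouse as a random effect (limma, adjusted p = 0.059 with an estimated correlation). The B-cell genes Cd79a and Ms4a1 were not called, with log2 fold changes of -0.41 and -1.09. Madcam1, an adhesion molecule of lymph node vessels, had 2579, 76.9, 606, 6240.3, 21649.9 and 16743 against 11.9 to 86.0 (median 40.6) (log2 fold change 7.48, SE 1.05), and together with Cr2 made up the 2 higher genes of 8 tested genes of lymph node stroma. Of 12 dendritic cell markers Zbtb46 (log2 fold change 3.47, SE 0.47) and Itgax (log2 fold change 1.16, SE 0.31) were higher. The higher shares were 25% of the tested lymph node genes and 16.7% of the dendritic cell markers, against 3.25% of all genes tested. Salivary gland and lymph node had been noted in the sections of HET-08 and HET-30 by pathology. Of 18 salivary gland genes 14 were too low to test and Lpo, lactoperoxidase, was higher, at 4553, 22.2, 41.6, 3258, 4706 and 2381 against 0 to 15.1 (median 4.4) (log2 fold change 8.87, SE 1.22). The summed salivary level was 348.8 to 4889 in PCA 3/4 and 313.8 to 2184 in PCA 1/2 tumours, and that of the 10 lymph node genes 271.7 to 59033 against 181.9 to 5094. HET-25 and HET-49, for which no such tissue was noted, also had Cr2, Madcam1 and Lpo far above every PCA 1/2 tumour, and the part of neighbouring tissue in these genes was not tested.

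Few mammary lineage genes were called. None of 12 luminal progenitor genes passed the test, while 10 of 12 were negative (median log2 fold change -0.9), where 52% of all genes tested were. Their summed level was below every PCA 1/2 tumour (88694 to 325197 normalised counts) in HET-08, HET-25, HET-30 and HET-49 (47200 to 72412). In HET-09 and HET-19 it was not. Of 12 hormone-sensing luminal genes Prlr, the prolactin receptor, was lower, with 568, 2086, 422, 272, 144 and 316 normalised counts against 1278 to 6592 (median 4207) (log2 fold change -2.71, SE 0.57). HET-09 alone was inside the PCA 1/2 range. Of 15 basal and myoepithelial genes Myh11, a smooth muscle myosin, was higher (log2 fold change 5.05, SE 0.75), at 5769, 748, 8385, 27458, 26535 and 24579 against 102 to 1511 (median 324). Of 10 milk protein genes Csn2, beta-casein, was higher (log2 fold change 6.28, SE 1.16), at 4716, 468, 5257, 71482, 4021 and 46280.1 against 5.10 to 656 (median 212). None of 25 proliferation genes was called (median 0.14).

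Aqp5, a water channel of secretory epithelium, headed the lower genes by edgeR and had 334, 363, 2324, 1675, 832 and 614 normalised counts in PCA 3/4 and 13180.4 to 116939 (median 49309.5) in PCA 1/2 tumours (log2 fold change -5.79, SE 0.67). Chrm3, a muscarinic receptor that drives secretion in glands, had 6.70, 87.1, 24.5, 12, 12.2 and 10 against 674 to 4902 (median 2070.1) (log2 fold change -6.57, SE 0.77). Lcn2 (lipocalin 2), an iron-binding protein of the innate defence that is often described as an NF-kB target, had 31126, 24453, 28234, 7997, 11911 and 8588 against 73307 to 208935 (median 106024) (log2 fold change -2.77, SE 0.39), so that it ran opposite to the pathway genes. It was the only lower gene among 14 tested antimicrobial and acute-phase genes. Cavin2, a caveolar coat protein (log2 fold change -2.70, SE 0.32), Cpm, a carboxypeptidase of the cell surface (log2 fold change -4.92, SE 0.61), and Akap12, a kinase scaffold (log2 fold change -3.41, SE 0.44), were lower as well. Zfp9, a zinc finger gene (log2 fold change -3.39, SE 0.43), Ppp1r3c, a glycogen-targeting subunit of protein phosphatase (log2 fold change -4.17, SE 0.58), and Tspan9, a tetraspanin (log2 fold change -1.42, SE 0.20), belong to the same 10 lower genes of smallest p. None of these 9 genes overlapped between the groups. Shisa8 was another, at 6.70, 26.5, 28.1, 61.9, 10.1 and 15.0 against 248 to 14659 (median 1127) (log2 fold change -6.96, SE 1.10). Some lower genes were nearly silent in PCA 3/4 and uneven in PCA 1/2 tumours. Htr5b, a serotonin receptor, was at most 7.00 in PCA 3/4 and 6.80 to 3935 (median 214) in PCA 1/2 tumours, and Alkal2, a ligand of the ALK receptor, at most 13.5 against 0 to 5938 (median 106), so that both overlapped. Acan, the cartilage proteoglycan aggrecan, was at most 44.4 against 6.80 to 10138 (median 532) and overlapped as well.

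A few Notch genes were lower. Of 19 tested Notch pathway genes 4 were lower and 0 higher, where 2.08% of all genes tested were lower. Log2 fold changes were positive in 8 of the 19 and negative in 11. Hey1, a transcriptional repressor switched on by Notch, had 160.3, 297, 279, 212, 189 and 288 normalised counts against 474 to 10821 (median 3841) (log2 fold change -4.32, SE 0.58), and Hes1, of the same family, 2377, 1562, 2511, 804, 2612 and 1841 against 3415 to 6132 (median 3882) (log2 fold change -1.16, SE 0.25), both without overlap. The receptor Notch3 (log2 fold change -2.21, SE 0.51) and the ligand Dll1 (log2 fold change -2.79, SE 0.65) were lower too, with HET-19 highest of the PCA 3/4 tumours in Notch3 at 5995. The call of Dll1 was lost with the mouse as a random effect (limma, adjusted p = 0.131 with an estimated correlation). Of 32 tested Wnt receptors, inhibitors and targets 3 were lower, Rspo3, Sfrp1 (log2 fold change -2, SE 0.47) and Fzd4 (log2 fold change -1.37, SE 0.38), where 2.08% of all genes tested were lower. Rspo1, a Wnt amplifier, was higher, at 404, 4807, 14521, 11812, 811 and 4012 against 3.10 to 1627 (median 74.5) (log2 fold change 4.43, SE 1.21). It made up 3.12% of the list, near the 3.25% of all genes tested that were higher. Rspo3, a relative of Rspo1, was at 20.5 in HET-09 and at most 2.00 in the other 5 PCA 3/4 tumours, against 16.7 to 830.5 (median 218). Of 12 tested Wnt ligands Wnt11 was higher (log2 fold change 2.68, SE 0.64), a call also lost with the mouse as a random effect (limma, adjusted p = 0.101 with an estimated correlation).

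Few matrix and mesenchymal genes were called. Of 21 collagen and matrix genes 19 were negative, where 52% of all genes tested were, and Fbln2, a matrix glycoprotein, was lower, at 2799, 7956, 2987, 4435, 1857 and 2956 normalised counts against 3140.4 to 40538 (median 29895) (log2 fold change -2.76, SE 0.50). Of 15 regulators of epithelial-mesenchymal transition Snai1 was lower, at 155, 502, 135, 199.6, 118 and 122 against 244 to 2457 (median 786) (log2 fold change -2.35, SE 0.54). All 10 fibroblast markers were negative, with Pdgfra called lower (log2 fold change -1.53, SE 0.39), a call lost with all 39 tumours in the fit and with the mouse as a random effect, and their summed level was 52925 to 226256 in PCA 3/4 and 78141 to 432590 in PCA 1/2 tumours. Whether the matrix genes followed the number of fibroblasts was not tested. Of 10 Src family kinases Fyn was lower (log2 fold change -1.43, SE 0.36).

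The 6 PCA 3/4 tumours were not alike. HET-25 lay above every PCA 1/2 tumour in 96.0% of the 595 higher genes, HET-49 in 92.3%, HET-30 in 92.1%, HET-08 in 78.3%, HET-19 in 60.8% and HET-09 in 43.0%. For the 381 lower genes the shares below every PCA 1/2 tumour were 49.6% in HET-09, 64.0% in HET-19 and 71.7% to 80.1% in the other 4. The median log2 level of the higher genes over their PCA 1/2 median was 0.71 in HET-09, 1.04 in HET-19, 1.61 in HET-08 and 2.26 to 2.40 in HET-25, HET-30 and HET-49. HET-09 was thus the least and HET-19 the next least distinct of the 6, though both grew in the same mouse as HET-08. In 391 higher genes HET-08, HET-25, HET-30 and HET-49 all lay above every PCA 1/2 tumour, and of these HET-19 alone joined them in 104, HET-09 alone in 49 and neither in 101. HET-09 is the tumour in which Traf3 was low and Cyld was not, and a link with its smaller differences was not tested.

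**Figure D5:**
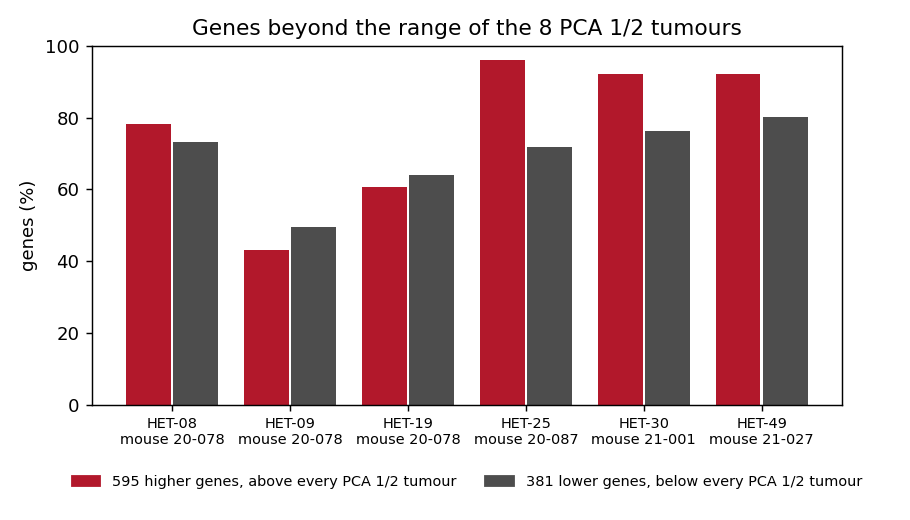
For each of the 6 PCA 3/4 tumours, with its mouse, the bars give the percentage of the 595 higher genes in which it lay above every PCA 1/2 tumour (red) and of the 381 lower genes in which it lay below every one (grey). The red bars run from 43.0% in HET-09 to 96.0% in HET-25, and the grey bars from 49.6% to 80.1%.

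Tumours of the same mouse were set side by side where they fell into different PCA groups. In mouse 21-001, HET-30 was set against HET-31, and in mouse 21-027, HET-49 against HET-63, with no replicate in either pair. Of the 595 higher genes 575 were positive in both pairs and 441 were at least 2-fold higher in both, as were 6.08% of all genes tested. Of the 381 lower genes 350 were negative in both and 210 at least 2-fold lower in both (6.14% of all genes). Of the 14 higher NF-kB genes 13 were at least 2-fold higher in both pairs, all but Traf2 at 0.53 in mouse 21-001 and 1.77 in mouse 21-027. Nfkb2 was 1.78 in mouse 21-001 and 3.20 in mouse 21-027 and Birc2 3.64 in mouse 21-001 and 3.58 in mouse 21-027 in the log2 ratios of the pairs. Cd74 and Ciita, by contrast, were higher in HET-30 than in HET-31 but lower in HET-49 than in HET-63, at 1.23 in mouse 21-001 and -0.35 in mouse 21-027 and 2.37 in mouse 21-001 and -0.47 in mouse 21-027. These tumours also made the groups, so the pairs hold the mouse constant but are no independent sample. With the mouse as a fixed block in edgeR, which leaves these pairs alone to inform the contrast, 6 genes were higher and 1 lower, and 594 of the 595 and 379 of the 381 kept their sign. With the mouse as a random effect in limma, at an estimated correlation of 0.127, 446 genes were higher and 313 lower, 397 and 228 of them shared with edgeR. Of the 87 called genes that are named by the rule or belong to a list, 61 were called there too, and 13 NF-kB genes were higher, all of the 14 but Nfkbid. Those lost include Dsg1a, Mmp7, Lpo, Cd40, Tnfrsf11a, Itgax, Dll1, Sfrp1, Fzd4, Htr5b, Alkal2 and Acan.

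The first part of a tumour's database number, 20 or 21, divided the tumours into 4 PCA 3/4 and 4 PCA 1/2 tumours numbered 20, and 2 and 4 numbered 21. Within those numbered 20 edgeR called 0 genes in either direction (1971 at an unadjusted p under 0.05, smallest adjusted p = 0.0534), and DESeq2 was not run on this subset. Of the 583 higher genes with a value there 582 were positive and 503 were at least 2-fold higher, and all 361 lower genes with a value were negative. Within those numbered 21, 386 genes were higher and 137 lower, and all 595 and 381 kept their sign. The tumours of each subset were also among those that made the PCA groups and selected these genes. Kept signs and folds were therefore largely set beforehand and are no independent replication. The subset numbered 20 holds HET-09 and HET-19.

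The contrast was also set beside that within Lynwt/wt tumours, 3 of PCA 3/4 against 9 of PCA 1/2, in 1 edgeR fit of all 39 tumours in 6 groups. Those tumours are not shared with the Lynfl/wt contrast, but the same principal component analysis placed them. By itself the Lynwt/wt contrast called 698 of 25835 genes higher (2.7%) and 178 lower (0.689%). Of the 595 genes higher in Lynfl/wt 559 were positive within Lynwt/wt and 431 at least 2-fold higher, while 44.7% of all genes tested were positive. Of the 381 lower genes 364 were negative and 284 at most 0.5-fold. The log2 fold changes within Lynwt/wt were 2.65 for Nfkb2, 1.85 for Relb, 10.62 for Spib, 6.38 for Sspo, -4.57 for Aqp5 and -3.56 for Lcn2, whereas Lpo, at 1.58, and Pdgfra, at 0.06, were nearer to 0 there. The single Lynfl/fl tumour of PCA 3/4, HOM-54, had a positive log2 fold change against the Lynfl/fl tumours of PCA 1/2 in 576 of the 595 genes and a negative one in 379 of the 381.

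Whether the PCA contrast differed between Lynfl/wt and Lynwt/wt tumours was asked by an interaction term. With edgeR 0 of 25835 genes passed an adjusted p of 0.05 (smallest adjusted p = 0.401), and 2130 (8.24%) had an unadjusted p under 0.05. DESeq2 gave 66 of 22372. A difference between the genotypes was thus not detectable with edgeR at 3 tumours of PCA 3/4 in the smaller arm, which does not show that the contrasts are alike.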

How the data were processed

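The deposited raw counts per gene were used for all 39 tumours, 1 column per tumour. Reads were paired, 100 bases each, from stranded poly(A) libraries. The authors used fastp for trimming and STAR 2.5.1b for alignment to GRCm38, dropped multimapping reads, and counted them with featureCounts 1.5.1 on Gencode vM17, as the study's methods and the submitters' processing notes give it. Of the counts between 1 and 10, 79.8% were even, so that a count appears to stand for a read rather than a fragment. A further 39 columns of normalised values were not used. The deposited tables also hold the authors' fold changes and p-values from DESeq2, which were neither used nor compared.

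Genotype, PCA group and mouse were taken from the labels and the study's sample table. The 14 Lynfl/wt tumours were fitted with edgeR 4.0.16 in R 4.3.3 (filterByExpr, TMM, quasi-likelihood F test, no covariate), with p-values adjusted over all genes tested. SEs are the log2 fold change divided by the root of F. Nothing in the labels says whether tumours of 1 mouse arose separately, and their consensus correlation from limma 3.58.1, used to fit the mouse as a random effect, was 0.127. Alternatives were DESeq2 1.42.0, other size factors, a stricter filter (at least 50 counts in 6 tumours) or none, all 39 tumours in the fit, mouse and number prefix as terms, sums per mouse, subsets and leaving out each tumour. Leaving out HET-07 and HET-09 together was added after the data were seen. In simulated data for this comparison (17962 genes), the fit called 14.9% of genes changed 2-fold, 68.7% of those changed 4-fold and 84.8% of those changed 8-fold, and 2 unchanged genes. The simulated tumours were drawn independently, with groups fixed beforehand and only well-expressed genes changed. It cannot show how many calls are false here, where tumours share mice and expression chose the groups. Figures were drawn with matplotlib 3.10.9 in Python 3.11.15.

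Genes named are Lyn, Brca1 and Trp53, those the study names for the PCA comparison, the 10 higher and 10 lower genes of smallest p, up to 4 members of each of 43 gene lists with the smallest p, and the 5 called genes with the largest fold in each direction at a mean of at least 100 normalised counts. The members, lists and rule were chosen with earlier results of these data known. Cyld and Traf3 and their neighbours, the other NF-kB genes, Tnfrsf11a, Bik, Bid, Gp2, Ikbkb, Cd79a and Ms4a1 were named after their values were seen. Brca1 was not called (log2 fold change 1.06, SE 0.34).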

Additional observations from a re-analysis of the deposited data

Results flagged for a closer look

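In 56 quantities, each looked at on the log2 scale of normalised counts plus 1 in both PCA groups, a single tumour lay far from the rest of its group in 11 of 112 groups, where chance gives about 1 in 20. The values below are the gap to the nearest tumour over the range of the group. Among PCA 3/4 tumours HET-09 stood apart in 4 genes: it was lowest for Bcl2a1d (0.744) and Dsg1a (0.771) and highest for Snai1 (0.637) and Rspo3 (0.639). HET-30 was highest for Bik (0.686). Among PCA 1/2 tumours HET-48 was lowest for Rel (0.595) and Fbln2 (0.585), HET-06 was lowest for Cyld (0.531), and HET-31 was highest for Traf3 (0.584) and lowest for Sspo (0.720). HET-63 was the only Lynfl/wt tumour of PCA 1/2 with any count of Dsg1a (1.000).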

How the results depend on the processing

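With DESeq2, 1178 genes were higher and 981 lower, of which 584 and 380 were shared with the 595 and 381 of edgeR. With all 39 tumours in the fit 964 were higher. Calls lost in that fit include Tnfsf15, Pdgfra, B2m, Cd74, H2-DMa, Bik, Ikbke, Fyn, Itgax, Sfrp1, Wnt11 and Casq1. Without the 3 tumours of mouse 20-078, 1066 were higher and 702 lower, with the mouse as a fixed block 6 and 1, within tumours numbered 20, 0 and 0, and within those numbered 21, 386 and 137. Leaving out each tumour in turn gave 358 to 819 higher and 200 to 565 lower genes. Only without HET-25 (358 and 209), HET-30 (395 and 222) or HET-49 (365 and 200) did these counts fall outside 1.5 times the main ones. Without HET-07 and HET-09 they were 869 and 529. For the genotype interaction DESeq2 gave 66 genes and each other alternative 0. The causes of these shifts were not tested, beyond the fewer tumours in the subsets. Of 5180 log2 fold changes of 193 named genes under alternatives, 4923 moved by less than the SD within groups and 256 moved further. With the mouse as a fixed block 92 of these 256 were found. Changes of sign were counted only for named genes that were called. Of those, Casq1 alone changed sign, at 0.34 with the mouse as a fixed block. The NF-kB list had at most 15 higher members, without the fold threshold, and 0 with the mouse as a fixed block. The tumour numbers are not shared between the PCA groups and pair no tumours, and the pairing by mouse is the fixed block above. Scaling by DESeq2 size factors gave 605 and 384. Counts, not molecules, set the precision, and with 6 tumours from 4 mice on the smaller side the spread between mice is poorly known.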

Other observations

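Runs of neighbouring low genes were looked for in all 14 tumours, over 11039 genes with a mean of at least 500 normalised counts, as at least 6 neighbours each at or under -1.5 on the log2 scale relative to the PCA 1/2 median. Beside the chromosome 8 stretch of HET-30, HET-49 had such a run of 6 genes on chromosome 10, from Col6a2 to Adarb1 (76595762 to 77418270 of GRCm38, median -2.04). HET-06, a PCA 1/2 tumour, had a run of 7 genes on chromosome 17 from H2-D1 to H2-Q7 (35262730 to 35443773, median -2.72), in the MHC class I genes that present peptides to T cells. These genes are close copies, so that reads mapping to several of them were left out.

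Metabolic and stress genes gave no calls. None of 19 glycolysis and hypoxia genes, 11 immediate-early genes or 25 proliferation genes was called in either direction. Neutrophil and mast cell markers were negative in all 10 tested members without a call, where 52% of all genes tested were negative. Their summed levels were 7536 to 36234 normalised counts in PCA 3/4 and 5824 to 67005 in PCA 1/2 tumours.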
